A study of Mus musculus with 6 samples.

Results

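The nuclear genes that encode subunits of the mitochondrial oxidative phosphorylation complexes were described in cultured mouse hepatic stellate cells of 2 genotypes. Members were taken by symbol, as all genes named for subunits of complex I (Nduf genes), complex II (Sdh genes), complex III (Uqcr genes and Cyc1), complex IV (Cox4 to Cox8 genes) and ATP synthase, also called complex V (Atp5 genes). This gave 83 genes of 17909 listed in at least 1 library, with 37 in complex I, 4 in complex II, 9 in complex III, 16 in complex IV and 17 in complex V. Cox6c2, Cox7b2, Cox8c and Ndufb1 also carry matching symbols in the reference and were not analysed here.

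Hepatic stellate cells are the vitamin A-storing pericytes of the liver, which turn into matrix-producing myofibroblasts on injury and in culture. The HAS2_Tg group (replicates 4, 5 and 6) carried a human HAS2 transgene under the alpha smooth muscle actin (ASMA) promoter, and the Has2_KO group (replicates 7, 8 and 9) was Has2 f/f with Lrat-Cre, which deletes Has2 in stellate cells. Both groups came from male C57BL/6 mice aged 24 weeks, and the cells were perfused out, separated on Nycodenz, depleted of Cd11b-positive macrophages, and cultured in medium with 10% serum for 4 h and then 14 h to day 1. Wild-type cells were not analysed here, so each difference is between the transgenic and the knockout cells and cannot be assigned to either. The ASMA promoter is active in activated stellate cells and in smooth muscle, so the transgene depends on a promoter that marks those states.

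Complexes I to IV pass electrons from NADH and succinate to oxygen, and complexes I, III and IV pump protons across the inner mitochondrial membrane as they do so. ATP synthase lets the protons flow back through its c ring and uses the rotation to make ATP. The catalytic core subunits are shared with bacteria, and some of them are encoded by the mitochondrial genome and not described here. Many small supernumerary subunits, all nuclear-encoded, surround the cores and serve in assembly and stability.

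Promoters of these genes are known for binding sites of NRF1, GABP (also called NRF2) and YY1, so the stretches before 5 members are printed to show the sequence behind genes described below. Ndufa13, Uqcr11, Cox6a1 and Atp5k were higher in HAS2_Tg, and Cox5a had the lowest log2 fold change of the tested members. Each stretch is the 250 bases before the transcript start used in the promoter table, 5′ to 3′ on the gene's strand, from RefSeq on GRCm38.p6, with matches to GCGCANGCG (NRF1), CCGGAAG (GABP) and AAGATGGC (YY1) on either strand in capitals.
Ndufa13, chr8:69902021-69902270, minus strand: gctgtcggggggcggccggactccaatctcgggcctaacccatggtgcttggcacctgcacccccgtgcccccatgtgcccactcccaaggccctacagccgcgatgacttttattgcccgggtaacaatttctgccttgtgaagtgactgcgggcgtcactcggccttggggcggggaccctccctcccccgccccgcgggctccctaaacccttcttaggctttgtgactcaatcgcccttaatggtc
Uqcr11, chr10:80406822-80407071, minus strand: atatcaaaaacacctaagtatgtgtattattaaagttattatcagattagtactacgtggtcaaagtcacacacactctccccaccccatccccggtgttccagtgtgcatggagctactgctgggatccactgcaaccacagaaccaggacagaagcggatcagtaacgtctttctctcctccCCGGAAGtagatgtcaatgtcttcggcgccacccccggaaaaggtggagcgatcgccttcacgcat
Cox6a1, chr5:115348959-115349208, minus strand: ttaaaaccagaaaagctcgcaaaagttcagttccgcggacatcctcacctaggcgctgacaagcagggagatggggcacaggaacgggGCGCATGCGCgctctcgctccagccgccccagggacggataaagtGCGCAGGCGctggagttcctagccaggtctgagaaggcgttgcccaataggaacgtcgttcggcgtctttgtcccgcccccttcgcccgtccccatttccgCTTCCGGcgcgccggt
Atp5k, chr5:108434400-108434649, minus strand: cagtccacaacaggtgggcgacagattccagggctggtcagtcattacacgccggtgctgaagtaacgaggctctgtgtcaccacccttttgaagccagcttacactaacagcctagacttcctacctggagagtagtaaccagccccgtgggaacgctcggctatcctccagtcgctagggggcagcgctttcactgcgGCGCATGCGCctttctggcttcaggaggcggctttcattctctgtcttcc
Cox5a, chr9:57520982-57521231, plus strand: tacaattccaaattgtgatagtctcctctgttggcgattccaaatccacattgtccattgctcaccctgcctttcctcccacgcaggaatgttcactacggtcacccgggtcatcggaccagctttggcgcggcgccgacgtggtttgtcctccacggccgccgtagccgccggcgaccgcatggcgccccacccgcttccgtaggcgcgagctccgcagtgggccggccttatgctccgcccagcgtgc
Cox6a1 held NRF1 matches that begin 162 bases (overlapped by a reverse match at 161) and 117 bases before the start, and a GABP match in reverse orientation at 16 bases. Uqcr11 held a GABP match at 66 bases, and Atp5k held an NRF1 match at 50 bases, overlapped by a reverse match at 49. Uqcr11 also held an NRF1 match, and Atp5k a GABP match, that end within the 50 bases after the start. These 2 matches are not marked in the printed stretches. The printed stretches of Ndufa13 and Cox5a held none of the 3 motifs. The starts of Uqcr11, Cox6a1 and Atp5k are also the edge of the gene's listed span, whereas that of Ndufa13 lies 538 bases and that of Cox5a 3904 bases inside the span, and the bases before the outer edge of these 2 genes were not searched.

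As a check of the Has2_KO label, counts of mouse Has2 were 847, 889 and 835 in HAS2_Tg and 1 in each Has2_KO library. The human HAS2 transgene was not measured separately, so these counts do not check the HAS2_Tg label. Total expected counts (the authors' estimates of reads per gene) were 11961726 to 12231327 in HAS2_Tg and 12364822 to 12423220 in Has2_KO. The tissue label was checked on marker lists. Of 12 stellate cell markers 9 were higher in HAS2_Tg and 0 lower, with Lrat at 102 ± 3.24 CPM in HAS2_Tg against 25.9 ± 2.08 CPM in Has2_KO (SD, n = 3 each). Kupffer cell and macrophage markers summed to 13.5 to 16.0 CPM in HAS2_Tg against 597 to 642 CPM in Has2_KO, and 13 of 13 tested were lower in HAS2_Tg, with Clec4f and Timd4 at 0 counts there. Sinusoidal endothelial markers summed to 12.8 to 14.5 CPM in HAS2_Tg against 902 to 988 CPM in Has2_KO, with 12 of 12 lower. Of 7 tested hepatocyte markers 6 were lower in HAS2_Tg and 1, Ass1, higher, with Hnf4a at 0 counts there. Hepatocyte markers summed to 428 to 502 CPM in HAS2_Tg against 285 to 304 CPM in Has2_KO, nearly all of it Ass1. Of 7 tested smooth muscle markers 7 were higher in HAS2_Tg, at summed levels of 12217 to 14894 CPM against 2893 to 2956 CPM. The groups thus differed in markers of other cell types, and the part of this in the results below was not tested. In bulk RNA, fewer cells of a type and less RNA per cell cannot be told apart.

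Subunit genes of oxidative phosphorylation leaned towards HAS2_Tg by small steps. With TMM scaling (trimmed mean of M values, which centres the bulk of genes), 37 of 81 tested members were higher in HAS2_Tg and 0 were lower (edgeR quasi-likelihood test, two-sided, Benjamini-Hochberg adjusted p under 0.05). Of all 13014 tested genes, 20.2% were called higher and 20.5% lower. The median log2 fold change of the members was 0.24, against -0.01 for all tested genes, and 75 of 81 members had a positive value. Apart from Ndufa4l2, the called members were 1.17-fold to 1.65-fold higher. Ndufa4l2 was the 1 member past 2-fold, a size that 11.2% of all tested genes reached in either direction with a call. No member was lower at an unadjusted p under 0.05 either, and the DESeq2 Wald test called 32 higher and 0 lower. The share of all genes called by the DESeq2 test is not given here.

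The direction of many members rests on the scaling. Scaled by total counts, 14 members were higher and 5 lower in HAS2_Tg, against 11.3% and 37.1% of all tested genes. Total-count scaling moved the median of all tested genes to -0.18 and that of the members to 0.06, a shift of 0.17 for all genes, so that the members' median lay 0.24 above the median gene with either scaling. The 14 higher members were also called with TMM, and they were Ndufa4l2, Ndufa5, Ndufa13, Ndufb3, Ndufb4, Ndufb10, Ndufb11, Ndufs5, Ndufs6, Ndufv3, Uqcr11, Cox7a2l, Atp5k and Atp5o. The 5 lower members were Ndufc2, Sdhd, Cyc1, Cox5a and Atp5g1.

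**Figure D1:**
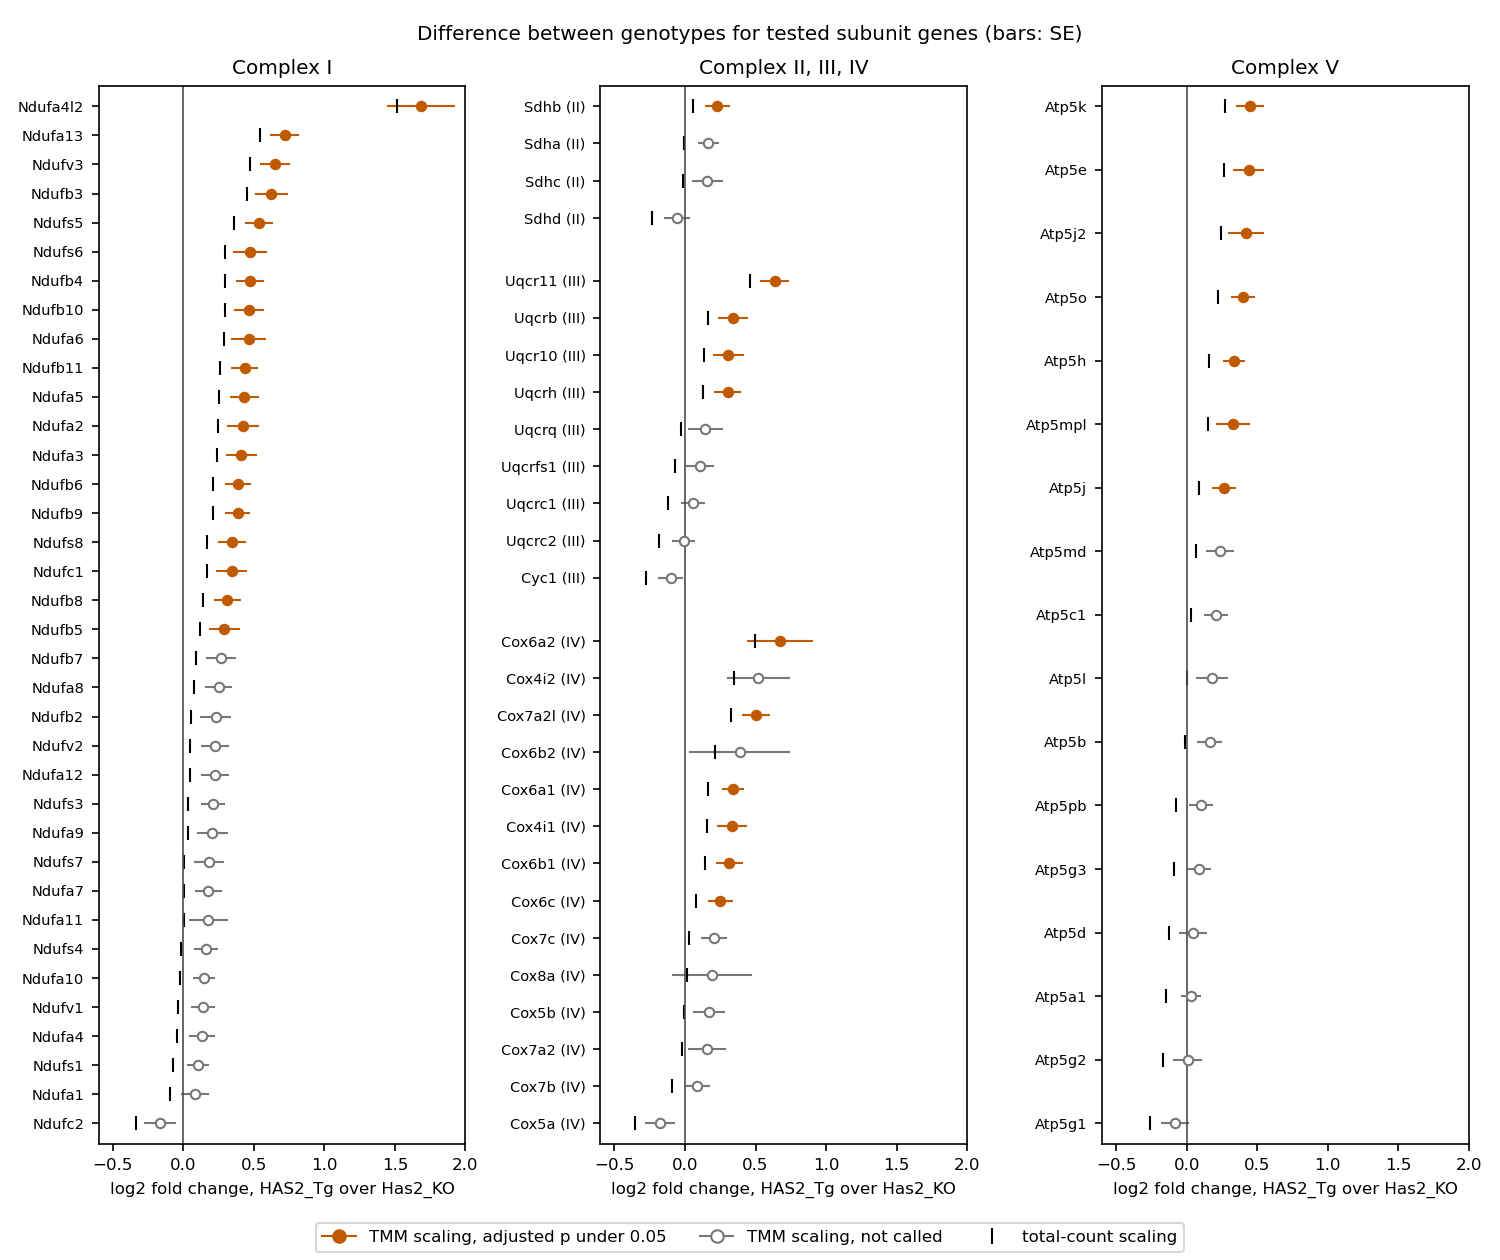
Log2 fold change of HAS2_Tg over Has2_KO (x axis) for 80 tested subunit genes (y axis, ordered within complexes), with TMM scaling as circles with SE bars (filled where called higher) and total-count scaling as ticks. Of the 80 circles 74 lie right of 0, against 54 of 80 ticks, and Ndufa4l2 stands alone at 1.69 with TMM and 1.51 with total counts.

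Replicate 4 of HAS2_Tg carried the highest levels. The members' median deviation from the mean of the Has2_KO libraries, in TMM-scaled log2 CPM, was 0.43, 0.20 and 0.15 in HAS2_Tg replicates 4, 5 and 6 and 0.04, -0.01 and -0.03 in Has2_KO replicates 7, 8 and 9. All HAS2_Tg medians lay above all Has2_KO medians. Replicate 4 was the highest of the HAS2_Tg libraries for 77 of 81 members, against 39.8% of all tested genes. Without replicate 4 of HAS2_Tg, 30 members were higher and 2 lower (Ndufc2 and Cox5a), and the median was 0.16. Of all tested genes 19.9% were called higher and 21.3% lower in that fit. Without replicate 8 of Has2_KO, 24 members were higher and 0 lower, against 15.6% and 16.3% of all tested genes. Of the 37 calls, 20 held with each library left out in turn, and 17 were lost in at least 1 of these fits, 7 without HAS2_Tg replicate 4, 2 each without HAS2_Tg replicates 5 and 6, and 7, 13 and 12 without Has2_KO replicates 7, 8 and 9. Among the members described below, the losses reached edgeR adjusted p = 0.0546 for Ndufs8 (without Has2_KO replicates 8 or 9), 0.1 for Uqcrh (8 or 9), 0.104 for Cox6b1 (8), 0.150 for Atp5j (8 or 9) and 0.138 for Cox4i1 (7 or 9, or HAS2_Tg 4). They reached 0.113 for Uqcrb (Has2_KO 8 or 9, HAS2_Tg 4 or 6), 0.123 for Cox6a2 (Has2_KO 8 or 9, HAS2_Tg 6) and 0.176 for Sdhb (Has2_KO 7 or 9, HAS2_Tg 4). In TMM-scaled CPM 41 of 81 members lay higher in all HAS2_Tg libraries than in any Has2_KO library, against 25.2% of tested genes, and 0 lay lower in all of them, against 26.9%.

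Summed over a complex, complex I stood furthest from the knockout level. Its TMM-scaled sums were 2407, 2010 and 1989 CPM in HAS2_Tg against 1780, 1686 and 1711 CPM in Has2_KO. The ratio of group means was 1.24 for complex I, 1.11 for complex II, 1.15 for complex III, 1.19 for complex IV and 1.13 for complex V. As log2 ratios these were 0.31, 0.16, 0.21, 0.25 and 0.18, and without replicate 4 of HAS2_Tg they were 0.21, 0.08, 0.11, 0.15 and 0.09. Complex II was the one whose ratio turned below 1 with total counts, where its share of all counts was 0.0396% ± 0.00296 in HAS2_Tg and 0.0402% ± 0.00211 in Has2_KO (SD, n = 3 each). All members together took 0.716%, 0.624% and 0.598% of counts in HAS2_Tg and 0.633%, 0.625% and 0.610% in Has2_KO, and these shares overlap. Their summed TMM-scaled CPM of 7721, 6512 and 6387 in HAS2_Tg and 5948, 5885 and 5757 in Has2_KO do not.

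**Figure D2:**
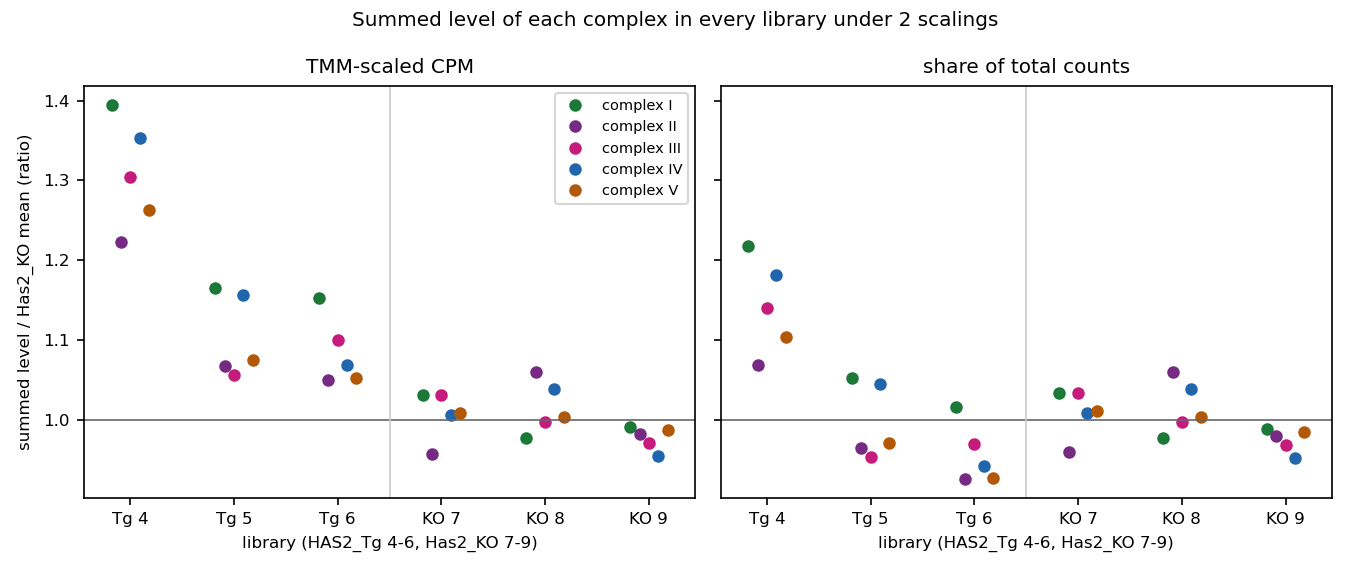
Summed level of each complex divided by its Has2_KO mean (y axis, ratio) in every library (x axis, HAS2_Tg replicates 4 to 6 left, Has2_KO replicates 7 to 9 right), with TMM-scaled CPM in the left panel and shares of total counts in the right. Replicate 4 of HAS2_Tg is highest for all 5 complexes in both panels, and in the right panel HAS2_Tg replicates 5 and 6 lie within or below the range of the Has2_KO libraries, except replicate 5 for complexes I and IV, which lies just above it.

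In complex I, which oxidises NADH, 19 of 37 members were higher in HAS2_Tg with TMM and 0 lower. With total counts 10 were higher and 1 lower. Over all tested genes 20.2% were higher and 20.5% lower with TMM, and 11.3% and 37.1% with total counts. Among the 7 core subunits that carry the flavin and the iron-sulphur clusters, Ndufs8 alone was called (log2 fold change of 0.35 with SE 0.10, edgeR adjusted p = 0.011), and the median was 0.18. Of these core subunits 0 were called without Has2_KO replicates 8 or 9, and 3 without HAS2_Tg replicate 6. In these fits 15.6%, 15.8% and 20.6% of all tested genes were called higher. The 30 other members, counted by symbol as supernumerary subunits, include Ndufa4 and its paralogue Ndufa4l2. Of these 30, 18 were called higher, Ndufa4l2 among them, and the median was 0.36. Supernumerary genes were also shorter, at a median of 560.5 bases in the files against 1472 bases for the core genes.

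Ndufa4l2, a paralogue of Ndufa4 known as a target of hypoxia-inducible factors that lowers complex I activity, had the largest change. It had 43, 44 and 36 counts in HAS2_Tg and 12, 16 and 16 counts in Has2_KO. Every HAS2_Tg library lay above every Has2_KO library. The log2 fold change was 1.69 (SE 0.24, edgeR adjusted p = 4.60e-05), and with each library left out in turn it lay between 1.56 and 1.78. Its level was low, at 3.52 ± 0.411 FPKM (the authors' fragment values per length and depth) in HAS2_Tg and 1.23 ± 0.188 FPKM in Has2_KO (SD, n = 3 each). The gene lies at chr10:127509274-127517154 (GRCm38.p6), where its span overlaps Shmt2, a gene with a mean of 1001 counts and a log2 fold change of -0.10 (edgeR adjusted p = 0.344). Ndufa4, which despite its name is now placed in complex IV, had 106, 85.4 and 84.4 CPM in HAS2_Tg against 87.5, 83.5 and 81.3 CPM in Has2_KO, and these overlap (log2 fold change 0.13, SE 0.09, edgeR adjusted p = 0.285).

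Ndufa13, a supernumerary subunit also known as GRIM-19, stood at 104, 76.9 and 82.6 CPM in HAS2_Tg against 55.6, 52.2 and 52.3 CPM in Has2_KO. The groups do not overlap, and replicate 4 is the highest. The log2 fold change was 0.72 (SE 0.10, edgeR adjusted p = 5.17e-05), and 0.54 with total counts. Ndufv3, a supernumerary subunit of the NADH-oxidising module, stood at 104, 74.7 and 88.9 CPM in HAS2_Tg against 60.8, 54.3 and 55.1 CPM in Has2_KO, again with no overlap (log2 fold change 0.65, SE 0.11, edgeR adjusted p = 1.79e-04). Ndufb3 and Ndufs5, both supernumerary subunits of the membrane arm, followed with log2 fold changes of 0.62 (SE 0.12) and 0.54 (SE 0.10). At the other end, Ndufc2 had 35.9, 33.4 and 25.8 CPM in HAS2_Tg against 33.1, 37.5 and 35.9 CPM in Has2_KO, which overlap. Its log2 fold change was -0.17 with TMM (edgeR adjusted p = 0.265) and -0.34 with total counts (edgeR adjusted p = 0.0233).

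Complex II, succinate dehydrogenase, links the citric acid cycle to the chain, and 1 of its 4 members was higher with TMM. Without HAS2_Tg replicate 4 or Has2_KO replicates 7 or 9 it was 0 of 4, and without HAS2_Tg replicate 6 it was 2 of 4. Of all tested genes 20.2% were higher with TMM, and 19.9%, 15.5%, 15.8% and 20.6% in these leave-out fits. With total counts 0 of 4 members were higher and 1 lower, against 11.3% and 37.1% of all tested genes. Sdhb, the iron-sulphur subunit, had 98.3, 84.7 and 83.8 CPM in HAS2_Tg against 74.8, 80.8 and 71.8 CPM in Has2_KO. The groups do not overlap, but the gap is small (log2 fold change of 0.23 with SE 0.09, edgeR adjusted p = 0.0428), and Sdhb was not called with total counts (0.06, edgeR adjusted p = 0.611). Sdhd, a membrane anchor, had a log2 fold change of -0.06 with TMM (edgeR adjusted p = 0.661) and was lower with total counts (-0.23, edgeR adjusted p = 0.0469).

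Complex III passes electrons from ubiquinol to cytochrome c, and its calls fell on small subunits. Of its core and catalytic subunits, Uqcrc1, Uqcrc2, Uqcrfs1 (the Rieske protein) and Cyc1 (cytochrome c1), 0 of 4 were called with TMM, with log2 fold changes from -0.10 to 0.10. Of the 5 small subunits 4 were higher, and Uqcrq was not called. The small subunit genes were also shorter, at a median of 503 bases in the files against 1489 bases for the core and catalytic genes. With the gene length offset described below, 1 of 5 small subunits was higher, against 20.3% of all tested genes. Their median log2 fold change was then 0.07, against 0.31 with TMM. Of the core and catalytic genes 0 of 4 were higher and 1 lower with that offset. Uqcr11 stood at 91.9, 70.5 and 70.1 CPM in HAS2_Tg against 52.2, 47.0 and 50.3 CPM in Has2_KO, with no overlap. Its log2 fold change was 0.64 (SE 0.10, edgeR adjusted p = 1.72e-04), and 0.46 with total counts (edgeR adjusted p = 0.00163). Uqcrh, the hinge protein that binds cytochrome c1, had 110, 85.8 and 95.6 CPM in HAS2_Tg against 84.5, 73.2 and 78.1 CPM in Has2_KO, which do not overlap (log2 fold change 0.30, SE 0.09, edgeR adjusted p = 0.0187). Uqcrb, which helps form the ubiquinone site, overlapped between groups at 199, 146 and 185 CPM in HAS2_Tg against 156, 135 and 129 CPM in Has2_KO (0.34, SE 0.11, edgeR adjusted p = 0.0222). Of complex III, 1 member (Uqcr11) was higher and 1 (Cyc1, -0.28) lower with total counts, and without replicate 4 of HAS2_Tg 2 of 9 were higher. Without Has2_KO replicates 8 or 9 it was 1 of 9. Over all tested genes 20.2% were higher and 20.5% lower with TMM, and 11.3% and 37.1% with total counts. Without HAS2_Tg replicate 4 or Has2_KO replicates 8 or 9, 19.9%, 15.6% and 15.8% of all tested genes were higher.

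Complex IV, cytochrome c oxidase, reduces oxygen, and 6 of its 14 tested members were higher with TMM, against 1 higher and 1 lower with total counts. Over all tested genes 20.2% were higher and 20.5% lower with TMM, and 11.3% and 37.1% with total counts. Without Has2_KO replicates 8 or 9, 3 of 14 members were higher, against 15.6% and 15.8% of all tested genes. Cox7a2l, also known as SCAF1, which joins complex III to complex IV in supercomplexes, stood at 130, 113 and 95.7 CPM in HAS2_Tg against 81.8, 79.2 and 78.0 CPM in Has2_KO. The lowest HAS2_Tg library lay above the highest Has2_KO library (log2 fold change of 0.50 with SE 0.10, edgeR adjusted p = 8.20e-04), and Cox7a2l was the member of complex IV still called higher with total counts (0.33, edgeR adjusted p = 0.0122). Cox6a1 had 169, 156 and 147 CPM in HAS2_Tg against 126, 125 and 122 CPM in Has2_KO, with no overlap (0.34, SE 0.08, edgeR adjusted p = 0.0023). Cox6b1, which joins the monomers of the dimer, had 134, 116 and 117 CPM in HAS2_Tg against 103, 85.1 and 106 CPM in Has2_KO, again with no overlap (0.31, SE 0.09, edgeR adjusted p = 0.0151). Cox5a, a subunit that joins early in the assembly of the enzyme, had 51, 46.4 and 40.8 CPM in HAS2_Tg against 50.7, 58.9 and 46.6 CPM in Has2_KO. These overlap, and its log2 fold change was -0.18 with TMM (edgeR adjusted p = 0.192), -0.35 with total counts (edgeR adjusted p = 0.0119) and -0.37 with a gene length offset (edgeR adjusted p = 0.00228).

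Complex IV is the complex with most tissue isoforms, and the isoforms usual in liver and other non-muscle tissue dominated in both groups. Cox4i1 had 155, 124 and 128 CPM in HAS2_Tg against 101, 126 and 95.5 CPM in Has2_KO, where replicate 8 overlaps the transgenic libraries (log2 fold change 0.33, SE 0.11, edgeR adjusted p = 0.0251). Cox4i2, the isoform known from lung and as induced by low oxygen, had 32, 38 and 33 counts in HAS2_Tg and 33, 23 and 27 counts in Has2_KO. Its raw counts overlap, whereas its TMM-scaled levels of 2.87, 3.31 and 2.88 CPM in HAS2_Tg and 2.51, 1.74 and 2.06 CPM in Has2_KO do not, and it was not called (0.52, 95% interval 0.05 to 1.0 before adjustment, edgeR adjusted p = 0.0754). Its span on chromosome 2 overlaps Bcl2l1, which has a mean of 1878 counts. Cox6a2, the heart and muscle isoform of Cox6a1, had 31, 30 and 37 counts in HAS2_Tg and 29, 20 and 22 counts in Has2_KO, and was called higher with TMM (0.67, SE 0.23, edgeR adjusted p = 0.0328) but not with total counts (0.50, edgeR adjusted p = 0.093). Cox6b2, known from testis, had 10, 14 and 10 counts in HAS2_Tg and 11, 7 and 12 counts in Has2_KO, which overlap.

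The other isoform genes of complex IV showed no call with TMM. The muscle isoform Cox7a1 had 2, 1 and 2 counts in HAS2_Tg and 1, 2 and 3 counts in Has2_KO, and Cox8b had 1, 2 and 2 counts in HAS2_Tg and 0 in all Has2_KO libraries. Both failed the filter on low counts and were not tested. Their widely expressed counterparts were far higher. Cox7a2 had 50.8, 38.9 and 33.7 CPM in HAS2_Tg against 38.3, 40.3 and 32.1 CPM in Has2_KO (log2 fold change 0.15, SE 0.14, edgeR adjusted p = 0.396). Cox8a had 80.6, 66.7 and 42.0 CPM in HAS2_Tg against 46.9, 68.9 and 49.8 CPM in Has2_KO, with the largest SE of a log2 fold change among the tested members over 10 FPKM (0.19, SE 0.28, edgeR adjusted p = 0.636). Cox7b had 78.9, 71.8 and 64.8 CPM in HAS2_Tg against 66.8, 72.7 and 63.4 CPM in Has2_KO (0.09, SE 0.09, edgeR adjusted p = 0.47). All 3 overlap between the groups.

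In ATP synthase, 7 of 17 members were higher with TMM, and 2 were higher and 1 lower with total counts. Over all tested genes 20.2% were higher and 20.5% lower with TMM, and 11.3% and 37.1% with total counts. With TMM the calls lay in the peripheral stalk (3 of 4), the small membrane subunits (3 of 5) and the F1 part (1 of 5), with 0 of 3 in the c ring. The called F1 gene, Atp5e, does not encode a catalytic subunit. With total counts 1 of 4 stalk, 1 of 5 membrane and 0 of 5 F1 subunits were higher. With the gene length offset described below it was 1 of 4, 0 of 5 and 0 of 5, against 20.3% of all tested genes. Without Has2_KO replicate 7, 1 of 5 membrane subunits was higher with TMM, against 15.5% of all tested genes. Atp5o, the stalk subunit that confers oligomycin sensitivity, stood at 161, 134 and 139 CPM in HAS2_Tg against 112, 114 and 103 CPM in Has2_KO. Atp5h, another stalk subunit, stood at 208, 185 and 194 CPM in HAS2_Tg against 157, 142 and 166 CPM in Has2_KO. Neither overlaps, with log2 fold changes of 0.40 (SE 0.08, edgeR adjusted p = 0.00159) and 0.34 (SE 0.08, edgeR adjusted p = 0.00394). Atp5k, a small membrane subunit of the dimer interface, had 63.3, 56.9 and 58.3 CPM in HAS2_Tg against 45.8, 36.9 and 48.3 CPM in Has2_KO, with no overlap (0.45, SE 0.10, edgeR adjusted p = 0.00232). It was called with total counts (0.27) but not with a length offset (0.16, edgeR adjusted p = 0.151).

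The c subunit is made from 3 genes that encode the same mature protein, and none was called with TMM. Atp5g1 had 66.0, 57.6 and 49.0 CPM in HAS2_Tg against 59.4, 63.9 and 59.6 CPM in Has2_KO. Atp5g2 had 74.4, 63.7 and 56.5 CPM in HAS2_Tg against 63.4, 70.4 and 59.7 CPM in Has2_KO. Atp5g3 had 88.5, 75.1 and 79.7 CPM in HAS2_Tg against 78.6, 79.1 and 71.1 CPM in Has2_KO. All 3 overlap between groups, with log2 fold changes of -0.08, 0.01 and 0.09 with TMM and -0.26, -0.17 and -0.09 with total counts, and Atp5g1 was lower there (edgeR adjusted p = 0.0409). Their 95% intervals before adjustment, with TMM, were -0.30 to 0.13, -0.21 to 0.22 and -0.09 to 0.27.

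Ratios of 2 members within a library do not depend on the scaling, though their members may differ in length. The pairs across subunits were chosen after their values were seen, so these ratios are descriptions. Counts of Ndufa4l2 were 3.63%, 4.49% and 3.73% of those of Ndufa4 in HAS2_Tg and 1.04%, 1.45% and 1.5% in Has2_KO. Counts of Uqcr11 were 88.7%, 74.7% and 81.8% of those of the core subunit Uqcrc2 in HAS2_Tg and 57.4%, 47.8% and 52.2% in Has2_KO. Neither ratio overlaps between the groups. Cox7a2l counts were 256%, 243% and 234% of those of Cox5a in HAS2_Tg and 161%, 134% and 167% in Has2_KO. These also stay apart, whereas Cox4i2 over Cox4i1 (1.86%, 2.66% and 2.25% in HAS2_Tg, 2.47%, 1.38% and 2.16% in Has2_KO) and Cox6a2 over Cox6a1 overlap.

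**Figure D3:**
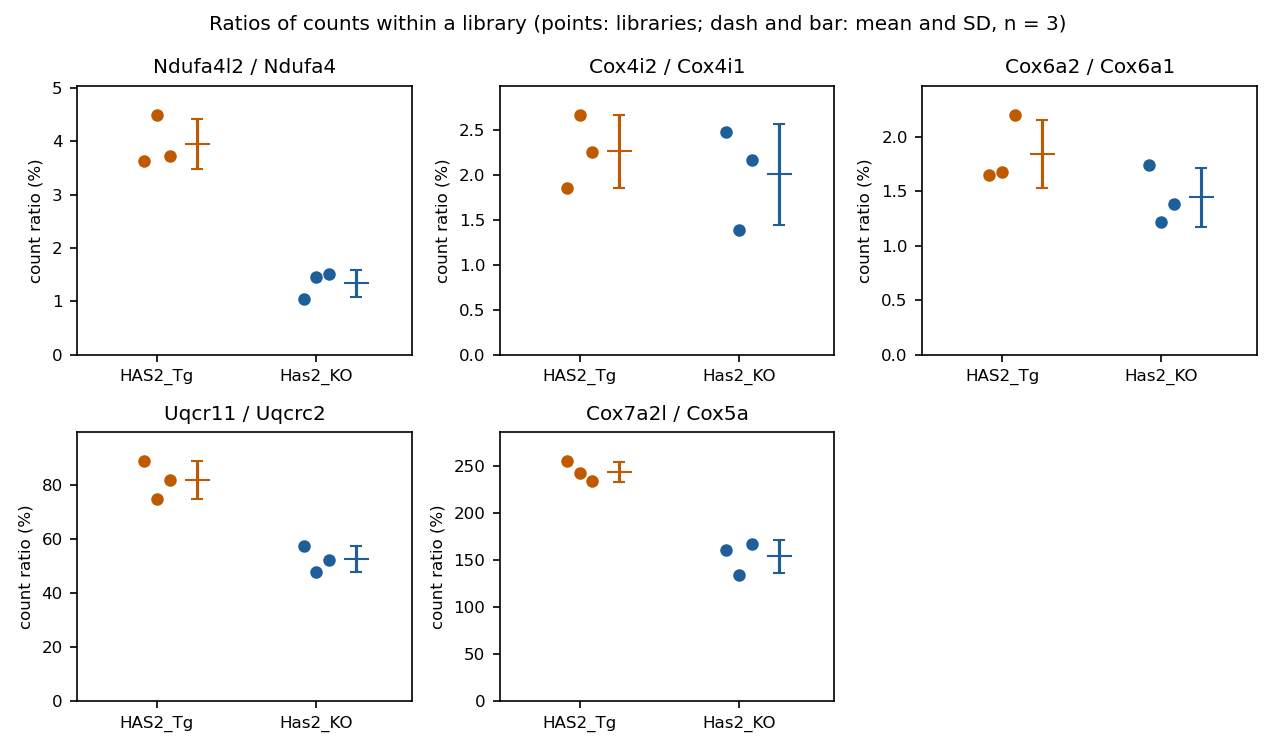
Count of 1 member as a percentage of another in the same library (y axis), with HAS2_Tg left and Has2_KO right, points for libraries and a dash with bar for mean and SD (n = 3). Ndufa4l2 over Ndufa4 was 3.95% ± 0.474 in HAS2_Tg and 1.33% ± 0.252 in Has2_KO, and the isoform ratios of Cox4i2 and Cox6a2 overlap between groups while the other 3 do not.

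Length went with the difference across the whole transcriptome. Of the 83 members, 60 were listed at under 1000 bases, and the median was 678 bases against 2588 for all listed genes. With TMM, the median log2 fold change of all tested genes was 0.18 under 1000 bases, 0.07 from 1000 to 2000, -0.01 from 2000 to 4000 and -0.09 over 4000. The tested members had medians of 0.32 under 1000 bases (58 genes, 34 higher) and 0.15 from 1000 to 2000 (19 genes, 3 higher), each above its class, in which 29.9% and 22.1% of all genes were called higher. Across the 81 members, Spearman's rho between length and log2 fold change was -0.44, and across all tested genes -0.17, as descriptions over genes that share the same libraries. With an offset for gene length in each library, chosen after seeing the data, 14 members were higher and 5 lower, against 20.3% and 22.6% of all tested genes, and the median was 0.07 against -0.02. Of the 14 called higher with total counts, 13 were also called higher with the length offset. The part of RNA quality or library preparation in the length trend was not tested.

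**Figure D4:**
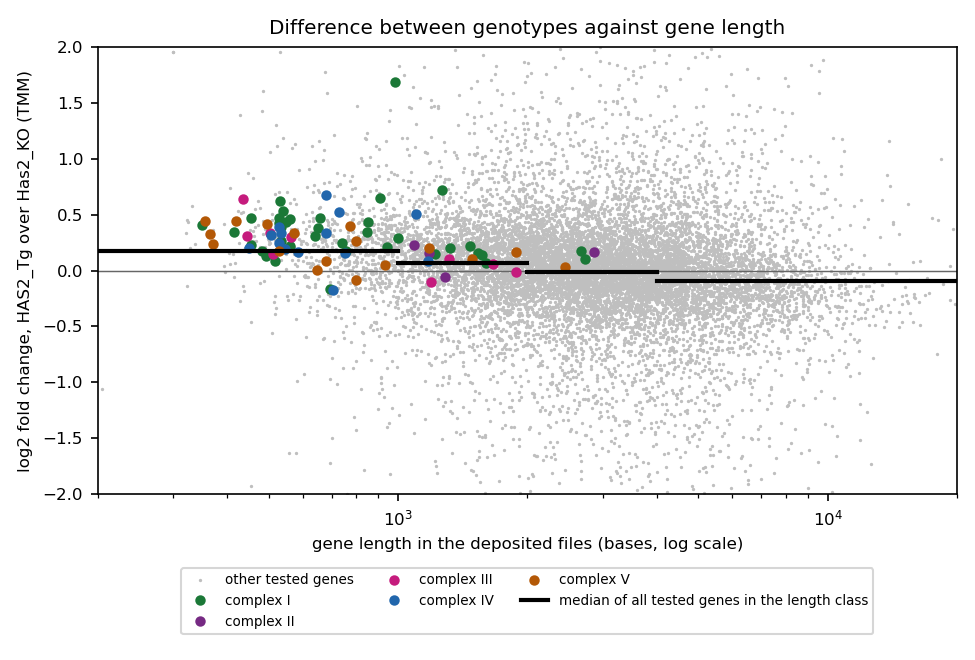
Log2 fold change of HAS2_Tg over Has2_KO with TMM (y axis) against gene length (x axis, bases, log scale) for members by complex (coloured), other tested genes (grey, 689 outside the axes not drawn) and the median of all tested genes per length class (black lines). Class medians step from 0.18 under 1000 bases to -0.09 over 4000, and most members under 1000 bases lie above their class line.

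By level per length, Atp5b (the catalytic beta subunit of ATP synthase) led with 394 ± 43.3 FPKM in HAS2_Tg and 398 ± 14.1 FPKM in Has2_KO (SD, n = 3 each). Uqcrb followed at 350 ± 48.4 FPKM in HAS2_Tg and 313 ± 33.0 FPKM in Has2_KO, then Atp5h at 337 ± 14.1 FPKM in HAS2_Tg and 301 ± 23.4 FPKM in Has2_KO. Cox6a1 came next at 293 ± 19.1 FPKM in HAS2_Tg and 261 ± 5.64 FPKM in Has2_KO. In the HAS2_Tg libraries Uqcrb overlapped both Atp5b and Atp5h, whereas Atp5b (368 to 444 FPKM) lay above Atp5h (325 to 352 FPKM). In Has2_KO Atp5b lay above the others, and Uqcrb and Atp5h overlap. In all, 33 members lay over 100 FPKM on average over the 6 libraries, 43 between 10 and 100, and 7 under 10. The 7 lowest were Ndufa11, Cox4i2, Cox6a2, Ndufa4l2, Cox6b2, Cox7a1 and Cox8b. Ndufa11 stands among them with 188 to 272 counts because the files list it at 2661 bases.

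The 3 motifs printed above were counted in all members. Promoter windows of 300 bases (250 before and 50 after the table's transcript start) were given for 67 of the 83 members and for 27025 genes. For 55 members that start is the edge of the listed gene span, and for 12 it lies inside. The NRF1 motif was found on either strand in 29.9% of member windows, against 15% of windows of tested genes and 7.03% of all. The GABP motif was found in 25.4%, against 19.8% and 9.93%, and the YY1 motif in 14.9%, against 5.23% and 3.19%. Any of the 3 was found in 22 of 29 windows of members called higher with TMM and in 17 of 36 windows of members not called. It was found in 34.5% of windows of tested genes and 17.8% of all. Whether the motifs go with the call was not tested. The NRF1 motif was first searched in a form of 10 letters, with 1 more C at its end, and shortened to 9 after those counts were seen. In the 10-letter form it was found in 25.4% of member windows, against 11.3% of windows of tested genes and 5.19% of all. Any of the 3 motifs was then found in 21 of 29 windows of called members and 17 of 36 of those not called. The shares were 31.9% of windows of tested genes and 16.4% of all. A match is a description of letters and not a binding site.

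Related genes were counted as lists. Of the assembly factors 4 of 17 for complex I were higher and 1 lower with TMM, 1 of 4 for complex II, 1 of 6 for complex III, 6 of 25 (5 lower) for complex IV and 0 of 4 for ATP synthase, against 20.2% of all tested genes higher and 20.5% lower. With total counts 0 of 17 were higher and 4 lower for complex I, 1 of 4 higher for complex II, 0 of 6 for complex III, 3 of 25 (5 lower) for complex IV and 0 of 4 (2 lower) for ATP synthase, against 11.3% and 37.1% of all. Cox20, a chaperone of the Cox2 subunit, stood at 32.3 ± 3.42 CPM in HAS2_Tg against 17.7 ± 0.75 CPM in Has2_KO (SD, n = 3 each), a log2 fold change of 0.87 (edgeR adjusted p = 6.37e-06), and Cox17, a copper chaperone, had 0.52 (edgeR adjusted p = 0.0018). Of cytochrome c and ubiquinone genes 4 of 18 were higher and 0 lower with TMM, among them Etfb, an electron transfer flavoprotein subunit (0.66). The largest log2 fold change of that list was 0.85, and with total counts 2 of its genes were higher and 4 lower. Of citric acid cycle genes 3 of 17 were higher and 0 lower with TMM, led by Pdha1 of pyruvate dehydrogenase (0.49), and with total counts 1 was higher and 4 lower. Median log2 fold changes with TMM were 0.12, 0.34, 0.15, 0.06 and 0.05 for the 5 assembly lists in the order of the complexes, 0.11 for cytochrome c and ubiquinone and 0.08 for the citric acid cycle.

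Regulators of mitochondrial biogenesis and of the hypoxia response were counted in the same way. Over all tested genes 20.2% were higher and 20.5% lower with TMM, and 11.3% higher and 37.1% lower with total counts. Of 14 tested biogenesis regulators 0 were higher and 2 lower with TMM, and 0 higher and 5 lower with total counts. Pprc1, a PGC-1-related coactivator, stood at 87.2 ± 4.19 CPM in HAS2_Tg against 116 ± 4.28 CPM in Has2_KO (SD, n = 3 each; log2 fold change -0.41, edgeR adjusted p = 4.02e-04). Gabpa, which encodes the DNA-binding part of GABP, stood at 57.2 ± 8.18 CPM in HAS2_Tg against 72.1 ± 1.53 CPM in Has2_KO (-0.34, edgeR adjusted p = 0.0122). Gabpa overlaps the member Atp5j by position. Atp5j was called higher with TMM (0.27, edgeR adjusted p = 0.0252). Nrf1 (0.16, edgeR adjusted p = 0.201) and Tfam (-0.11, edgeR adjusted p = 0.343) were not called. Of 17 hypoxia genes 4 were higher and 4 lower with TMM, and 3 higher and 6 lower with total counts. Epas1, which encodes HIF-2 alpha, had a log2 fold change of 0.89 (edgeR adjusted p = 1.35e-06). The targets Pdk1 and Vegfa, 2 of the 4 lower genes, were at -1.77 and -0.82. The other called genes of this list, in both directions, are not named here.

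Other mitochondrial lists had calls in both directions with TMM, whereas the calls among cytosolic ribosomal protein genes were all higher. The shares over all tested genes were again 20.2% higher and 20.5% lower with TMM, and 11.3% and 37.1% with total counts. Of 25 carriers and membrane genes 6 were higher and 4 lower with TMM, and 3 higher and 8 lower with total counts, with the uncoupling protein Ucp2 at 1.2 and the ADP/ATP carriers Slc25a4 at 0.49 and Slc25a5 at -0.57 in log2 fold change with TMM. Of 78 mitochondrial ribosomal protein genes 12 were higher and 2 lower with TMM (median 0.11), and with total counts 4 were higher and 9 lower. Of 81 cytosolic ribosomal protein genes, which are also short, 37 were higher and 0 lower with TMM (median 0.22), the same counts as for the oxidative phosphorylation subunits, and 6 were higher and 4 lower with total counts.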

How the data were processed

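RNA of 3 HAS2_Tg and 3 Has2_KO libraries was sequenced on BGISEQ-500, per the labels' protocols. RSEM and mm10 were used, per the submitters' processing notes, with no RSEM version stated. Per the file headers, the deposited tables list an NCBI gene identifier, a length, an expected count (the authors' estimate of reads per gene, not always whole) and an FPKM value (fragments scaled by the authors for gene length and library depth). Counts were whole, within 0.005, in all libraries for 80 of 83 members, and not for Ndufs1, Atp5j2 and Ndufs5. A gene missing from a file was set to 0, which filled 12658 cells. Symbols came from RefSeq on GRCm38.p6, which named 17857 of 17909 identifiers, and promoters from RefSeq on the same build.

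After rounding and filterByExpr, 13014 genes entered a robust quasi-likelihood fit in edgeR with TMM factors. Tests were two-sided, and p-values were Benjamini-Hochberg adjusted over these genes, with a threshold of 0.05. TMM factors were 0.929, 0.959 and 0.936 in HAS2_Tg and 1.06 in each Has2_KO library. CPM values are TMM-scaled. The SE of a log2 fold change is its absolute value over the root of F. The 2 members under the filter (Cox7a1 and Cox8b) were not tested. The spans of 17 members overlap another listed gene, and the sources used here do not say whether counting used strand.

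Within groups, pairs of libraries differed by more than sampling noise (chi-square per degree of freedom 2.31 to 31.5, genes with a pair sum of 20 or more). No label says that libraries came from separate mice, so p-values measure the spread between these libraries, which may be technical. The groups share no replicate numbers. Per-library values were given for isoform pairs and, in each complex, for up to 3 called members with the smallest adjusted p, and up to 3 called genes of a related list could be named. Any member could be named. The other members and related genes described one by one were chosen after their values were seen, among them Ndufc2 and Cox5a with values by library, and Ndufb3, Ndufs5, Ndufs8, Ndufa11, Sdhd, Cyc1, Uqcrc1, Uqcrc2, Uqcrfs1, Uqcrq, Atp5b, Atp5e, Atp5j, Nrf1 and Tfam. The values of 1 member are not reported here, though it enters the counts, sums and medians. The members, lists and tests were chosen with earlier results of these data known. The NRF1 motif was shortened from 10 letters to 9 after its counts were seen, and both forms are given.

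Alternatives in the same fit were total counts, DESeq2 size factors, upper-quartile factors, no filter, a mean of at least 5 CPM, an adjusted p of 0.01 and each library left out. Other tests were DESeq2's Wald test and, for genes with an FPKM of 1 or more in 3 libraries, limma on log2(FPKM + 1) and on log2(FPKM + 0.1), and limma unfiltered. A gene length offset and a fit without marker-list genes were added after seeing the data. The scripts were tested on simulated data. R 4.3.3 ran edgeR 4.0.16, DESeq2 1.42.0 and limma 3.58.1. Python 3.11.15 ran matplotlib 3.10.9, scipy 1.17.1, numpy 2.4.6 and pandas 2.3.3.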

Additional observations from a re-analysis of the deposited data

How the results depend on the processing

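The count of members higher in HAS2_Tg, 37 in the fit as reported, was 14 with total counts, 14 with limma on log2(FPKM + 1), 14 on log2(FPKM + 0.1), 8 with limma and no filter, 14 with a gene length offset and 22 at an adjusted p of 0.01. Leaving out a library gave 24 (Has2_KO replicate 8) to 47 (HAS2_Tg replicate 6). Of all tested genes 20.2% were higher as reported, 11.3% with total counts and 20.3% with the length offset. The shares lower were 20.5%, 37.1% and 22.6%. Without Has2_KO replicate 8 or HAS2_Tg replicate 6, 15.6% and 20.6% were higher. For limma, the adjusted p of 0.01 and the other normalizations, filters and tests, the shares of all genes are not given here. Counts in those settings thus cannot be set against all genes. The count lower, 0 as reported, was 5 with total counts, 5 and 4 with limma at pseudocounts of 1 and 0.1, 2 with limma and no filter, 5 with the length offset and 0 to 2 with a library left out. The median log2 fold change of 0.24 was 0.063 with total counts and in each of the 3 limma fits, 0.074 with the length offset and 0.16 to 0.31 with a library left out. The other normalizations, the filters, the DESeq2 Wald test and the fit without marker-list genes kept the count higher at 30 to 40 and the count lower at 0. The fit without marker-list genes took out only those genes and left the members' counts as they were. It therefore cannot show what part other cell types have in the members' values. Of the members called higher, 20 stayed called with each library left out in turn. The cause of these moves was not tested, except that total counts and FPKM lack the TMM factors by construction.

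Among members named above that were not called, and among Atp5a1, Sdha and Sdhc, these changed sign (log2 fold change). With total counts Atp5a1 was -0.14, Atp5b -0.014, Cox7a2 -0.021, Ndufa4 -0.046, Atp5g3 -0.087, Sdhc -0.016, Cox7b -0.089, Sdha -0.0099, Atp5g2 -0.17, Uqcrc1 -0.12, Uqcrfs1 -0.071 and Uqcrq -0.031, and the summed level of complex II -0.020. In all 3 limma fits, Atp5b was -0.019, Ndufa4 -0.053, Sdhc -0.018, Atp5g2 -0.17 and Cox8a -0.012. At a pseudocount of 1, with and without the filter, Atp5a1 was -0.14, Cox7a2 -0.033, Atp5g3 -0.087, Cox7b -0.090, Sdha -0.011, Uqcrc1 -0.12, Uqcrfs1 -0.074, Uqcrq -0.043 and Ndufa11 -0.0081. At a pseudocount of 0.1, Atp5a1 was -0.15, Cox7a2 -0.034, Atp5g3 -0.088, Cox7b -0.091, Sdha -0.012, Uqcrc1 -0.13, Uqcrfs1 -0.077, Uqcrq -0.043 and Ndufa11 -0.011. With the length offset Cox7a2 was -0.033, Cox8a -0.056, Ndufa4 -0.12, Atp5g3 -0.11, Cox7b -0.032, Uqcrc1 -0.025, Uqcrq -0.11 and Atp5g2 -0.20, and with the stricter filter Atp5g2 was -0.011. With a library left out, Atp5a1 ran from -0.0065 to 0.072, Cox7a2 from -0.028 to 0.28, Cox8a from -0.026 to 0.42, Atp5g2 from -0.11 to 0.10, Uqcrc2 from -0.085 to 0.058 Atp5g1 from -0.20 to 0.021, Uqcrc1 from -0.048 to 0.11, Uqcrfs1 from -0.00080 to 0.19, Uqcrq from -0.030 to 0.26 and Ndufa11 from -0.0026 to 0.30. The lowest of each came without replicate 4 of HAS2_Tg. With counts of 7 to 44 for Ndufa4l2, Cox4i2, Cox6a2 and Cox6b2 in a library, counting error limits these members. No paired analysis was possible because the groups share no replicate numbers.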
